A study of Mus musculus with 4 samples.

Results

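The MARCH genes encode membrane-associated RING-CH ubiquitin ligases, and 9 of them, *March3* to *March11*, were followed through the RNA of GFP-positive cells sorted from the testis. In the deposited tables these genes do not carry their own names. The rows read 3-Mar to 11-Mar, the dates into which a spreadsheet turns the older mouse symbols, and the members were chosen by that text, with earlier results of these data known. Of 24411 rows in each table, 27 read as a date, 13 of these fall in March, and 9 are described here. Each of the 9 dates occurs once per table and answers to exactly 1 GENCODE symbol, and the other genes with a synonym of this form in RefSeq have rows under another name. The remaining 4 rows read 1-Mar or 2-Mar, which could stand for the MARC amidoxime reductases as well as for MARCH ligases, and they received no gene name.

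The cells came from testes of male mice at postnatal day 18 and carried an allele called *Rec8-3xFLAG-HA-p2A-GFP*, a knock-in, which makes GFP together with the meiotic cohesin REC8 and served as the sorting gate. Control libraries 1 and 2 were *Zfp541*+/− and the other 2 libraries were labelled *Zfp541* KO, here called KO-labelled libraries. The KO allele is a deletion that removes most coding exons of a zinc-finger gene of pachytene spermatocytes. The labels give the strain as mixed C57BL/6 and CBA. The knock-in allele was heterozygous in 1 control and homozygous in the other, and the labels do not say which, while it was homozygous in the KO-labelled libraries. Every group therefore shares the knock-in, and its dose cannot be told apart from the difference between the controls. The dose also differs in part between the controls and the KO-labelled libraries, and its part in the group differences was not tested.

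*Zfp541* itself stood at 112 TPM in control 1, 72.2 TPM in control 2, and 136 and 151 TPM in KO-labelled libraries 1 and 2, so its summed transcript level was not lower under the KO label. A value per gene does not show whether reads came from the deleted exons, so it does not check the genotype, and the study's protein assays were not analysed here. *Rec8* was at 7.05 and 27.9 TPM in the controls, against 27.7 and 19.4 TPM in the KO-labelled libraries. Each control stood apart from the other libraries in some genes. In control 2 the 7 macrophage markers summed to 28.8 TPM, against 1583 to 2542 TPM elsewhere. Its 6 Leydig cell markers summed to 19.1 TPM, against 325 to 2901 TPM. Control 1 had the lowest *Rec8* level and the highest Leydig cell sum. Its 12 pachytene markers summed to 8868 TPM, against 3806 to 4904 TPM elsewhere. TPM accounts for the length of each gene and gives every library an equal total, so levels may be compared between genes, but the depth behind each value is unknown. In these bulk samples, fewer cells of a type and less RNA per cell cannot be told apart.

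Ubiquitin ligases of this family hold a RING-CH domain, a zinc-binding module that faces the cytosol, receives a ubiquitin-charged E2 enzyme and hands the ubiquitin to a neighbouring protein. Most members sit in a membrane through hydrophobic segments, and their known substrates are membrane proteins of the endoplasmic reticulum, mitochondria, endosomes or cell surface. In the testis the family is known for MARCH10 and MARCH11, a pair of ligases of developing spermatids. MARCH10 associates with microtubules, and MARCH11 has been placed in the sorting of membrane proteins towards multivesicular bodies.

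The 2 members that differed most between the groups, *March10* and *March11*, were lower in the KO-labelled libraries, whereas *March7* and *March8* were among those that were higher. Their upstream sequences are shown because their counts of CG dinucleotides differ as well. Each is the stretch of 250 bases before the RefSeq start on GRCm38.p6, read on the strand of the gene, and capitals mark CG dinucleotides. The *March10* stretch lies at chr11:105456736-105456985 on the reverse strand, that of *March11* at chr15:26308798-26309047 on the forward strand, that of *March7* at chr2:60209686-60209935 on the forward strand, and that of *March8* at chr6:116337772-116338021 on the forward strand.

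March10: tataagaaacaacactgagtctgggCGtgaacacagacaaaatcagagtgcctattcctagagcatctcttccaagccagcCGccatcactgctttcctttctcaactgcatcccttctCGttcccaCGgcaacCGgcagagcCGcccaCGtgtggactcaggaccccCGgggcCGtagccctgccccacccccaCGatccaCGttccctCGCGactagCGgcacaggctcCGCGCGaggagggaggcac
March11: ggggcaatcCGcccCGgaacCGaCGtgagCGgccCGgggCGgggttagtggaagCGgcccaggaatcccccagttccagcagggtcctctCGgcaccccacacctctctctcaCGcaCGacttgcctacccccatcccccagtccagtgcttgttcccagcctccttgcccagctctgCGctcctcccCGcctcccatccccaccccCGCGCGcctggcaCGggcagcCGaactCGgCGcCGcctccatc
March7: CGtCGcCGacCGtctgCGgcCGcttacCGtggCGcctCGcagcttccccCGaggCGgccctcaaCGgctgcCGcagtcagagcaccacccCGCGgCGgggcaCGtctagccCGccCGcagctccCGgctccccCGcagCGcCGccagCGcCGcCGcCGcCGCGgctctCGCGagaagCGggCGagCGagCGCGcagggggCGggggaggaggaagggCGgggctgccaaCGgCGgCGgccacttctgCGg
March8: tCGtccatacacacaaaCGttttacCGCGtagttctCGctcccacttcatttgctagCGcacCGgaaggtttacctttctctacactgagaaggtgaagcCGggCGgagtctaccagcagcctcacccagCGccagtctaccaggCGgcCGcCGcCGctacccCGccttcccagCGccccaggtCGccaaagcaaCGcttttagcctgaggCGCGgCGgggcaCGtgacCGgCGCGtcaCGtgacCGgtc

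The *March10* stretch held 17 CG dinucleotides and the *March11* stretch 21, against 42 for *March7* and 27 for *March8*. *March9*, *March5* and *March6* held 29, 31 and 49. Over 32841 promoter stretches of the same length the median was 6, so that *March10* had more CG dinucleotides than 76.5% of them and *March6* more than 99.8%. *March4*, which was barely detected, held 8. Among the 7 members both tested and searched, *March10* and *March11* thus had the lowest CG counts. The share of G and C bases did not give this order, at 71.2% for both *March11* and *March5* and 63.2% for *March8*. The order by CG count is a description over 7 genes and carries no test.

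**Figure D1:**
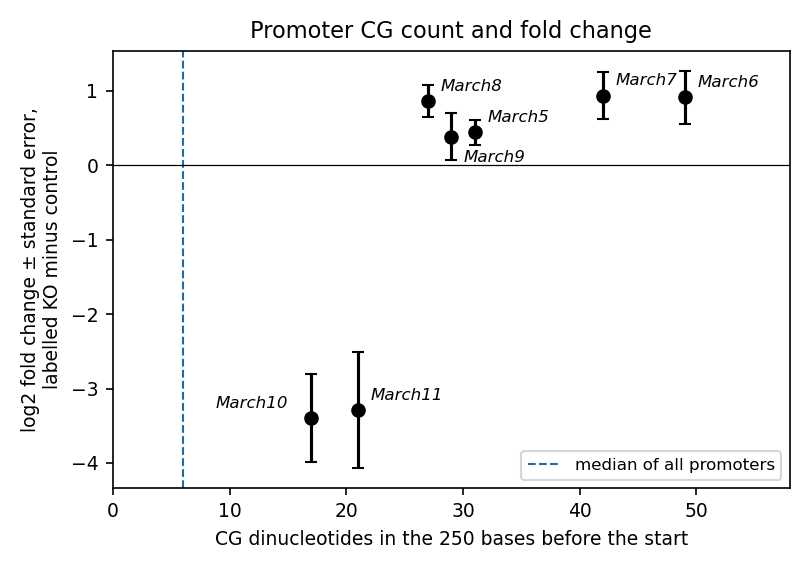
The log2 fold change with its standard error (vertical, labelled KO minus control on the log2(TPM + 1) scale) is plotted against the number of CG dinucleotides in the 250 bases before the start (horizontal) for 7 MARCH genes, with the median of all promoters dashed. *March10* and *March11*, at 17 and 21 CG dinucleotides, sit near -3.3, and the genes with 27 to 49 sit above 0.

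Short sequence motifs were looked for on both strands of these stretches. The MYB core AACTG occurred once each in *March10*, *March11* and *March4*, at positions -146, -180 and -125 from the start, and not in *March5* to *March9*. It occurred in 39.1% of all promoters. Only these letters were searched, and they were chosen after the values and sequences were seen. The related form AACGG, which is present in the *March5* and *March7* stretches, was not counted. The absence from *March5* to *March9* thus holds for AACTG alone. The X-box core GTTGCC occurred in *March10* alone of the 8 genes searched and in 10.4% of all promoters. The CRE core TGACG, which is part of the full CRE TGACGTCA, was found in *March4*, *March6* and *March8* and in 17.8% of all promoters, whereas the full CRE and the TATA box TATAAA were in none of the 8. *March3* was not included in the sequence analysis.

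*March10* (row 10-Mar), on chromosome 11 of GRCm38 from 105360798 to 105456735, was the most abundant member in control 1. It was at 240.7 TPM in control 1, 90.1 TPM in control 2, 9.63 TPM in KO-labelled library 1 and 17.6 TPM in KO-labelled library 2. The groups did not overlap, and the lower control was still well above the higher of the KO-labelled libraries. The means were 165 ± 106 TPM (SD, n = 2) and 13.6 ± 5.66 TPM (SD, n = 2), a ratio of 12.1 between controls and KO-labelled libraries. On the log2(TPM + 1) scale, which understates the change of weakly expressed genes, the difference was -3.40 (standard error, SE, 0.59, limma adjusted p = 0.310 over 14512 genes). Of the genes tested, 47 had a more negative log2 fold change.

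*March11* (row 11-Mar), on chromosome 15 from 26309048 to 26409576, ran close beside it. It measured 215 TPM in control 1 and 55.98 TPM in control 2, then 6.85 and 15.4 TPM in KO-labelled libraries 1 and 2. These groups did not overlap either, and the order of the 4 libraries was the same as for *March10*. The means were 135 ± 112 TPM (SD, n = 2) and 11.1 ± 6.06 TPM (SD, n = 2), and the log2 fold change was -3.29 (SE 0.78, limma adjusted p = 0.310). It was exceeded in the negative direction by 54 genes. The ratio of *March10* to *March11* stayed between 1.12 and 1.61 in the 4 libraries, although *March10* spanned a 25.0-fold range between libraries and *March11* a 31.4-fold range.

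The controls themselves were far apart for this pair. Control 1 held 2.67 times as much *March10* as control 2, and 3.84 times as much *March11*. When every control was set against every KO-labelled library, 4 pairs in all, the log2 difference ranged from -4.51 to -2.29 for *March10* and from -4.78 to -1.80 for *March11*, so its direction was the same in every pair. Without control 2 the log2 fold changes were -4.10 and -4.25, and without control 1 they were -2.69 and -2.33. The sample labels can be rearranged in so few ways that an exact permutation test of 2 against 2 libraries cannot give a two-sided p under 0.333.

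**Figure D2:**
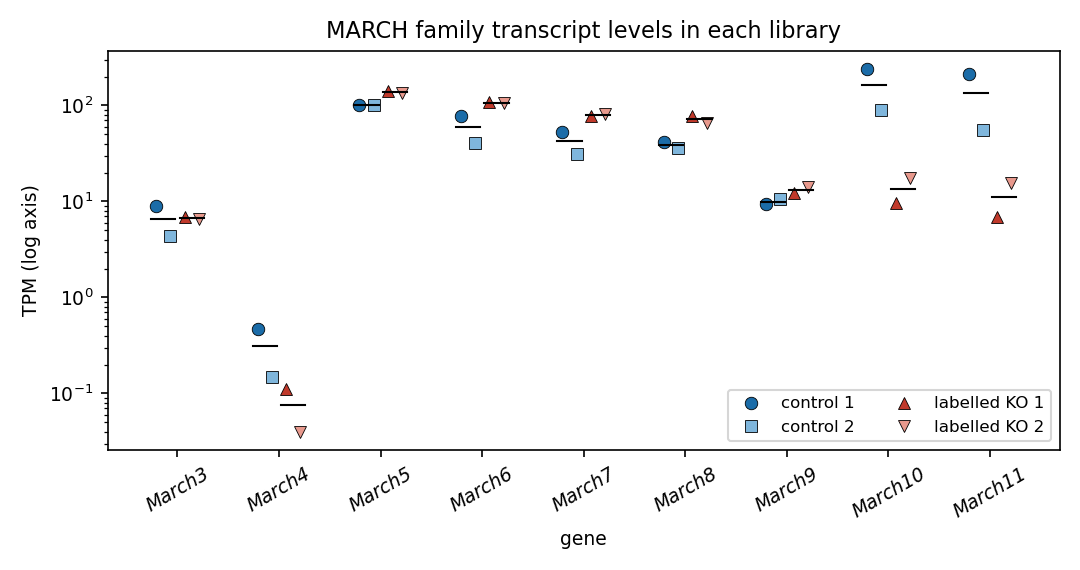
The level of each MARCH gene is plotted in each library in TPM on a log axis, with horizontal bars for the mean of the 2 controls (circle and square) and of the 2 KO-labelled libraries (triangles). *March10* and *March11* lie at 55.98 to 240.7 TPM in the controls and at 6.85 to 17.6 TPM in the KO-labelled libraries, while the groups of *March3* overlap.

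No gene passed an FDR of 0.05 in limma, which is 0.0% of the genes tested in either direction, and accordingly none of the 8 members tested did. The smallest adjusted p over all genes was 0.310. The paper, with RSEM as its test, reports genes in both directions at this FDR, so the absence of calls belongs to the limma fit. Before adjustment, 1549 genes higher and 542 lower had p under 0.05, and with median-ratio scaling these counts were 605 and 1097. The members at that level in the main comparison were 2 higher (*March7* and *March8*) and 2 lower (*March10* and *March11*). Both KO-labelled libraries were below both controls in 12.1% of the genes tested and above both in 38.6%. Among the 8 members tested, 2 were below and 5 above. A difference as negative as -3 on the log2 scale was found in 0.6% of the genes tested, and 2 of the 8 members were past it. This threshold was set after the values were seen, so the contrast is a description and shows no enrichment. The median over all genes tested was 0.28 above 0, a shift that is part of every fold change given here, and relative to it *March10* and *March11* were at -3.68 and -3.57.

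*March5* (row 5-Mar) encodes the ligase of the mitochondrial outer membrane, also called MITOL, which acts on mitofusins and on the fission factor DRP1. It stood at 100.5 TPM in control 1, 102 TPM in control 2, and 141 and 135 TPM in KO-labelled libraries 1 and 2. Both KO-labelled libraries were above both controls, and the controls differed from each other by less than the groups did. The log2 fold change was 0.44 (SE 0.17, limma adjusted p = 0.354). Relative to the median over all genes this leaves 0.16, and with median-ratio scaling, which removes the shared shift, the value was 0.11 and the groups overlapped.

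*March6* (row 6-Mar) encodes the large ligase of the endoplasmic reticulum known as TEB4, the counterpart of yeast Doa10, which marks squalene monooxygenase for degradation. It measured 78.0 TPM in control 1 and 40.8 TPM in control 2, then 107 and 107 TPM in KO-labelled libraries 1 and 2. The KO-labelled libraries were almost alike, and the controls differed 1.91-fold. The log2 fold change was 0.91 (SE 0.36, limma adjusted p = 0.360). It was 0.46 without control 2 and 1.37 without control 1, so its size rested on which control was used.

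*March7* (row 7-Mar) encodes axotrophin, a member that lacks evident membrane segments. It stood at 53.2 TPM in control 1, 31.4 TPM in control 2, and 77.6 and 81.1 TPM in KO-labelled libraries 1 and 2. The groups did not overlap, and control 2 was again the lowest library. The log2 fold change of 0.94 (SE 0.31, limma adjusted p = 0.327) was close to those of *March6* and *March8*, and it was 0.57 without control 2 and 1.31 without control 1. The profile of *March7* over the 4 libraries, each gene centred on its own mean, lay at a Euclidean distance of 0.14 from that of *March6* and of 0.45 from that of *March8*.

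*March8* (row 8-Mar) encodes an endosomal ligase, first called c-MIR, that lowers the transferrin receptor, MHC class II and CD86 at the cell surface. It measured 42.0 TPM in control 1 and 36.5 TPM in control 2, then 78.2 and 66.0 TPM in KO-labelled libraries 1 and 2. The groups did not overlap, and unlike *March6* and *March7* the controls were close together, at a ratio of 1.15. The log2 fold change was 0.86 (SE 0.21, limma adjusted p = 0.310) and lay between 0.64 and 1.08 in the 4 pairs of a control and a KO-labelled library. With median-ratio scaling *March6*, *March7* and *March8* remained above both controls, with log2 fold changes of 0.58, 0.61 and 0.53.

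**Figure D3:**
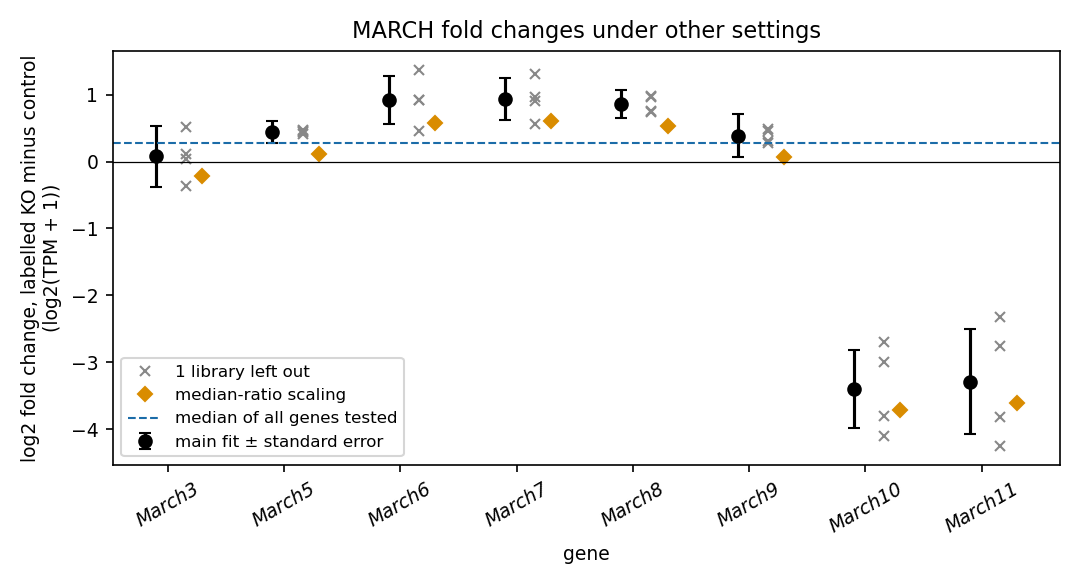
The log2 fold change (labelled KO minus control on the log2(TPM + 1) scale) is shown for the 8 MARCH genes tested, as the main fit with its standard error, with median-ratio scaling, and with 1 library left out in turn, beside the dashed median of all genes tested at 0.28. *March10* and *March11* stay between -4.25 and -2.33 throughout, *March6* to *March8* stay above 0.45, and *March3* lies on both sides of 0.

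The other members were weakly expressed. *March9* (row 9-Mar), a ligase of the Golgi and endosomes that lowers MHC class I and ICAM-1, stood at 9.38 TPM in control 1, 10.5 TPM in control 2, and 12.3 and 14.3 TPM in KO-labelled libraries 1 and 2. Its log2 fold change was 0.39 (SE 0.32, limma adjusted p = 0.596), and its groups overlapped after median-ratio scaling, where the value was 0.075. *March3* (row 3-Mar), an endosomal ligase, was at 8.88 and 4.40 TPM in the controls, against 6.92 and 6.49 TPM in the KO-labelled libraries. The latter lay between the controls, and the log2 fold change of 0.076 (SE 0.46, limma adjusted p = 0.950) was smaller than the spread between controls and turned to -0.21 with median-ratio scaling. *March4* (row 4-Mar), related to *March9*, was at 0.47 and 0.15 TPM in the controls, against 0.11 and 0.04 TPM in the KO-labelled libraries, below the mean of 1 TPM needed for the test.

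The make-up of the family differed between the groups as a result of these values. *March10* and *March11* together made up 60.9% and 39.3% of the summed TPM of the 9 genes in controls 1 and 2, and 3.75% and 7.47% in the KO-labelled libraries 1 and 2. *March5* to *March8* made up 36.6% and 56.6% in the controls and 91.9% and 87.8% in the KO-labelled libraries. In summed TPM the other 7 members were at 292 and 225 in the controls and at 423 and 410 in the KO-labelled libraries. *March5* was the most abundant member in control 2 and in both KO-labelled libraries, while *March10* and *March11* held ranks 1 and 2 in control 1, ranks 6 and 8 in KO-labelled library 1 and ranks 5 and 6 in KO-labelled library 2. In the KO-labelled libraries the neighbours *March10* and *March11* lay within their spread of *March9*, and *March7* and *March8* could not be ranked. In the controls the spread likewise left *March10* and *March11*, and *March6*, *March7* and *March8*, without an order among themselves.

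**Figure D4:**
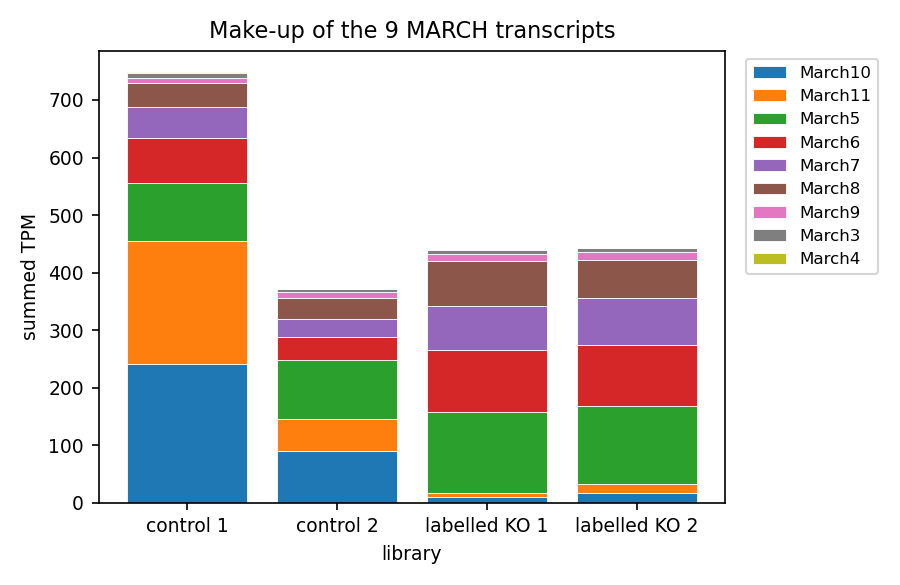
Stacked bars show the TPM of the 9 MARCH genes in each library, from a base of 0. *March10* and *March11* fill 455.7 of 748 TPM in control 1 and 16.5 of 440 TPM in KO-labelled library 1, where *March5* to *March8* fill most of the bar.

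Stage markers differed between the groups too. The 12 pachytene markers, all tested, had a median log2 fold change of -0.98 against 0.28 over all genes, with 7 below both controls and none above. That median was -1.58 without control 2, while it was -0.72 without control 1. Among them *Spata16*, which encodes a Golgi protein tied to acrosome formation, was at 207 and 76.3 TPM in the controls, against 4.42 and 13.6 TPM in the KO-labelled libraries, and *Pgk2*, the germ cell phosphoglycerate kinase, at 79.0 and 18.4 TPM and at 1.59 and 2.71 TPM. Both had the same order of libraries as *March10* and *March11*. At the other end of the list, *Calm2* had a log2 fold change of 0.020 and *Tbpl1* of -0.41, and the groups of both overlapped. The 12 markers summed to 8868 and 4904 TPM in the controls, against 3806 and 4882 TPM in the KO-labelled libraries. In this sum control 2 was close to KO-labelled library 2. For leptotene and zygotene, the 12 markers gave a median of 0.93, with 10 above both controls and none below. Over all genes tested, 38.6% were above both controls and 12.1% below. The median of all genes was -0.015 with median-ratio scaling, 0.15 without control 2 and 0.44 without control 1. The leptotene and zygotene median was 0.60 with median-ratio scaling, 1.24 without control 2 and 0.66 without control 1. *Spo11* of this list went the other way, at -0.16, and its groups overlapped. None of the markers in either list passed the FDR in limma.

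Markers of later stages were sparse. Of 10 round spermatid markers only 3 reached the level needed for the test, and their sum was 134 and 55.9 TPM in the controls, against 50.3 and 53.7 TPM in the KO-labelled libraries. *Acr*, the acrosomal protease acrosin, was the largest of them in the controls, at 118 and 36.5 TPM, and stood at 18.0 and 21.9 TPM in the KO-labelled libraries. *Spaca1*, which encodes a protein of the acrosomal membrane, went the other way, at 7.34 and 13.9 TPM in the controls, and was the largest in the KO-labelled libraries, at 26.98 and 26.6 TPM (log2 fold change 1.32, adjusted p = 0.319 from limma). The protamine genes *Prm1* and *Prm2* were at no more than 1.48 TPM in any library. *Prm1* was listed at 0 in control 2 and both KO-labelled libraries, and *Prm2* at 0 in control 2 and KO-labelled library 2. *Tnp2*, another elongating spermatid marker, was at 7.59 TPM in control 1, 0 in control 2, and 0.46 and 0.75 TPM in the KO-labelled libraries. The 8 markers of that stage summed to 11.9 TPM in control 1 and to 0.92 to 3.94 TPM elsewhere. The macrophage and Leydig cell sums separated control 2 from the other libraries and not the groups. *March3*, *March6*, *March7* and *March8* were lowest in control 2 as well, and the part of these cells in their levels was not tested. The part of the stage markers in the levels of *March10* and *March11* was not tested.

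**Figure D5:**
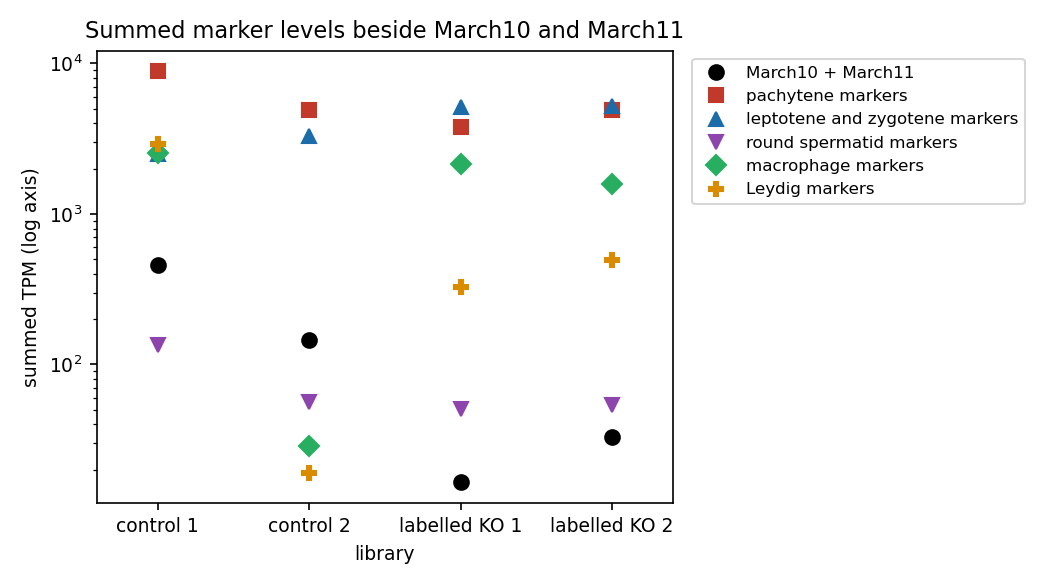
Summed TPM of *March10* and *March11* and of 5 marker lists is plotted for each library on a log axis. The MARCH pair is at 455.7 and 146 TPM in the controls, against 16.5 and 33.1 TPM in the KO-labelled libraries, whereas macrophage and Leydig cell markers are lowest in control 2, at 28.8 and 19.1 TPM.

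Genes that work with the MARCH ligases were read beside the same background. In it, 38.6% of all genes were above both controls and 12.1% below, with a median of 0.28. That background median was itself 0.44 without control 1 and 0.15 without control 2. Of 23 E1 and E2 enzymes, which charge and carry the ubiquitin, 13 were above both controls and 2 below. Their median log2 fold change was 0.29, with 0.12 without control 1 and 0.29 without control 2. *Uba6*, an E1 enzyme, was at 36.4 and 34.2 TPM in the controls, against 86.1 and 75.0 TPM in the KO-labelled libraries (log2 fold change 1.17, adjusted p = 0.310 from limma). *Ube2d2b*, an E2 of the UBE2D family, was at 197 and 38.9 TPM in the controls, against 12.9 and 22.5 TPM in the KO-labelled libraries (log2 fold change -2.30, adjusted p = 0.347 from limma), in the same order of libraries as *March10* and *March11*. *Ube2v2*, a partner of UBE2N, had a log2 fold change of 1.01, and *Uba1*, the main E1 enzyme, of -0.37.

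Of 23 genes of endoplasmic reticulum-associated degradation, in which MARCH6 works, 10 were above both controls and 2 below. Their median was 0.38, with 0.15 without control 2 and 0.49 without control 1. The log2 fold changes ran from -0.26 for *Ubxn8* to 0.74 for *Rnf145*, itself a ligase of this membrane. Of the 10 sterol and lipid genes tested, 4 were above both controls and none below, with a median of 0.31, which was -0.013 without control 2 and 0.55 without control 1. Of 14 mitochondrial partners of MARCH5, 6 were above and 3 below, with a median of 0.22, from -1.07 for *Park2*, which encodes the mitophagy ligase parkin, to 0.69 for *Dnm1l*, which encodes DRP1. This median was -0.026 without control 2 and 0.38 without control 1. Of 18 surface proteins that MARCH ligases are known to lower, 5 were above and 1 below, with a median of 0.82. Without control 2 the median was 0.13, against 0.15 over all genes, so its distance from the background rested on that library. This list includes immune cell genes such as *Cd86*, at 21.1 TPM in control 1, 0 in control 2, and 18.1 and 14.7 TPM in the KO-labelled libraries, and the macrophage sum varied in the same way. With median-ratio scaling the medians of the E1 and E2 enzymes, the sterol and lipid genes and the MARCH5 partners turned to -0.040, -0.018 and -0.097, beside -0.015 over all genes. None of the genes in these lists passed the FDR in limma.

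The genes with profiles nearest to those of the members, by Euclidean distance over 4 libraries on the centred log2(TPM + 1) scale, were *Hdhd1a* for *March10* (0.15) and *Pebp4* for *March11* (0.14). *Pebp4* was at 224 and 64.3 TPM in the controls, against 7.74 and 18.5 TPM in the KO-labelled libraries. *March10* and *March11* were 0.42 apart. For members that varied less, the nearest genes included *Rad21*, which encodes the mitotic cohesin kleisin, for *March5* (0.013), *Gigyf2* for *March7* (0.020), *Glg1* for *March8* (0.030), *Lrif1* for *March9* (0.021) and *Serp1* for *March3* (0.035). With 4 libraries such distances are small for many genes, and they are given as a description.

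The gene models bear on how well reads can be assigned. No stretch of 75 bases, the read length, was shared between transcripts of different members in GENCODE, and *March3*, *March4*, *March6* to *March9* and *March11* shared none with any other gene. *March5* shared 2.63% of its stretches with the pseudogenes *Gm7684* and *Gm8641*. *March10* shared 19.7% with *Gm11638*, a noncoding gene on the opposite strand that overlaps up to 907 exonic bases and has no row in the tables. The counting is not stated to use strand, so reads of this pair cannot be told apart and the level of *March10* is uncertain to that extent. The longest coding transcripts ran from 1754 nucleotides for *March3* to 6260 nucleotides in 26 exons for *March6*. Corrected for transcript length, *March5* was at 0.65, *March6* at 0.62 and *March8* at 0.69 on the log2 scale, and *March10* at -3.39.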

How the data were processed

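Libraries from GFP-positive testis cells of postnatal day 18 formed 2 groups by their labels, *Zfp541*+/− (control, n = 2) and *Zfp541* KO (n = 2). According to the methods and the submitters' processing notes, the authors trimmed reads with Trim Galore 0.5.0 (cutadapt 1.16), aligned them to UCSC mm10 with STAR 2.6.0a, and estimated expression with RSEM 1.3.1, and they deposited TPM per gene and sample. TPM keeps no depth, so no counting error could be given. Nothing says whether samples were separate litters, and p-values measure only the spread between them.

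Genes averaging 1 TPM or more were compared by genotype in R 4.3.3 with limma 3.58.1 on log2(TPM + 1), with the variance trended on the mean and p-values adjusted over all genes by Benjamini-Hochberg (FDR 0.05). The step was tested on simulated data with the same spread for every gene and both groups. It therefore does not cover the unequal spread of the real libraries. Date rows were given symbols through GENCODE M21 and RefSeq tables (GRCm38, the assembly called mm10). Promoter sequences came from RefSeq on GRCm38.p6, and 8 of the 9 members were used. All 9 members were named. Also named were *Zfp541* and *Rec8*, members of each list from its 2 largest and 2 smallest fold changes, and the gene nearest in profile to each member, of which 1 is not reported here. *Prm1*, *Prm2* and the overlapping genes were named after their values were seen. The members and lists were chosen with earlier results of these data known. The promoter motifs, the promoter sequences shown and the log2 threshold of -3 were chosen after the values and sequences were seen. Alternatives covered the pseudocount, filter, scaling, variance model, replicate block and leaving out each sample. A length correction and a crossed block were added after seeing the data.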

Additional observations from a re-analysis of the deposited data

How the results depend on the processing

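With 2 libraries per group and no depth, the main fit separated no member's difference from the spread at the FDR, whatever its size. *March5* to *March11* kept the direction of their difference under all 15 alternatives, and *March3* did not, at -0.21 with median-ratio scaling, -0.18 with quantile normalization, -0.099 with the length correction (alone or with the replicate block) and from -0.36 to 0.51 with a library left out. Median-ratio scaling moved the median of all genes from 0.28 to -0.015 and the share of genes above 0 from 69.0% to 49.0%, and quantile normalization moved that share to 55.8%.

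Median-ratio scaling left 3 members above both controls in place of 5. It gave 605 genes higher and 1097 lower at an unadjusted p under 0.05, in place of 1549 and 542, and quantile normalization gave 1010 and 1009. For the scalings this goes with the shift of the median over all genes.

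The replicate number as a block gave 656 genes higher at an unadjusted p under 0.05 and none at the FDR, and with the length correction 548 higher and 293 lower. It changed no other call. Deviations of samples with equal numbers had a correlation of -0.16 across genes. With the numbers crossed as the block, 7 genes were higher and 80 lower at the FDR, with *March10* (adjusted p = 0.0171 from limma) and *March11* (adjusted p = 0.0248 from limma) among them. No label pairs the libraries in this crossed way, and the block was added after the data were seen. Its adjusted p-values are therefore no evidence for a difference in these genes. Over all alternatives the adjusted p from limma ranged from 0.014 to 1.0 for *March10* and from 0.0236 to 1.0 for *March11*.

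With a library left out, the lone sample of its group is assumed to vary like the other group. Genes at the FDR then ranged from 0 to 5610 higher and from 0 to 1875 lower, and at an unadjusted p from 59 to 6592 higher and from 124 to 2798 lower. The high counts came from leaving out control 1 or control 2, where the spread is that of the KO-labelled libraries alone. Without control 1, 5610 genes were higher and 1375 lower, and without control 2, 2248 and 1875, and *March5* to *March8*, *March10* and *March11* were past the FDR in both fits. Of 194 list medians recomputed under the alternatives, 13 moved by more than the spread between replicates. That spread was wide where the controls differed, so the count does not show that the medians were stable. The Leydig median of -0.14 became 2.77 without control 1 and -3.07 without control 2 and was not counted as moved. The elongating spermatid list gave no value with a minimum mean of 5 TPM, where none of its genes was left.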

Other observations

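The rows reading 1-Mar and 2-Mar occur in duplicate and could not be given a gene. One of the rows 1-Mar was at 0 TPM in the controls and in KO-labelled library 1 and at 0.09 TPM in KO-labelled library 2. The other was at 3.81 TPM in control 1, 0.09 TPM in control 2, and 4.36 and 4.69 TPM in the KO-labelled libraries, so that control 2 stood apart as it did for the macrophage markers. The rows 2-Mar were at 34.3 and 29.7 TPM in the controls with 37.3 and 31.7 TPM in the KO-labelled libraries, and at 78.0 and 94.4 TPM with 63.1 and 62.3 TPM. In the second of these, both KO-labelled libraries were below both controls.

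Macrophage genes were abundant in 3 of the 4 sorted libraries. *Lyz2*, which encodes lysozyme, was at 1152 TPM in control 1, 10.99 TPM in control 2, and 912 and 646 TPM in the KO-labelled libraries. The Leydig cell hormone gene *Insl3* was at 1925, 4.99, 186 and 366 TPM in the same order. Spermatogonial markers summed to 436 TPM in control 1 and 979 TPM in control 2, and to 820 and 750.0 TPM in the KO-labelled libraries. The 10 genes had a median difference of 0.094 on the log2 scale, against 0.28 over all genes tested. Their median was 0.48 without control 2, 0.17 without control 1 and -0.17 with median-ratio scaling. Over all genes the same settings gave 0.15, 0.44 and -0.015. Sertoli cell markers summed to 638 and 1237 TPM in the controls, against 980.4 and 862 TPM in the KO-labelled libraries.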
